A study of Mus musculus with 8 samples.

Results

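The 10 genes of muscle protein breakdown described here in the triceps of Nf1Prx1 mice are the ubiquitin ligase genes Fbxo32, Trim63, Trim54, Trim55, Fbxo30, Fbxo31 and Fbxo40, the transcription factor genes Foxo1 and Foxo3, and the receptor gene Eda2r. They were chosen by name, with earlier results of these data known, and all 10 were measured among the 19938 genes of the array. Levels came from Affymetrix Mouse Gene 1.0 ST arrays, with 1 array for each mouse. The groups were 4 Nf1Prx1 mice and 4 wild-type control mice, all aged 3 months and kept on standard chow. Nf1Prx1 is a conditional knockout in which Cre recombinase under the Prx1 limb enhancer removes Nf1 from limb bud mesenchyme, the source of limb connective tissue, so cells outside that lineage need not have lost the gene. Nf1 encodes neurofibromin, an inhibitor of Ras signalling. The study concerns the need for neurofibromin in skeletal muscle development, as its title states.

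Muscle fibres remove contractile and other proteins through the ubiquitin-proteasome system. A ubiquitin ligase picks the protein to be marked, and the proteasome then degrades it. Fbxo32 (atrogin-1) and Trim63 (a muscle RING finger protein) are induced in fasting, denervation and many other kinds of wasting. FoxO factors switch them on, and insulin-like growth factor signalling through Akt holds FoxO proteins out of the nucleus. A FoxO transcript level therefore does not tell how active the protein was.

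In Nf1Prx1 triceps 6 of the 7 ligases and Eda2r had lower mean levels by more than the other 3 genes. The mean was lower by 0.56 to 1.06 on the log2 scale for Fbxo32, Trim63, Trim54, Trim55, Fbxo31, Fbxo40 and Eda2r, which corresponds to 1.47-fold to 2.08-fold lower. Fbxo30 was lower by a smaller step, and Foxo1 and Foxo3 differed by 0.20 and 0.00. The median over the 10 genes was a log2 difference of -0.74, against -0.04 over all genes. The 5 and 95 percent points of all genes were -0.45 and 0.41.

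No gene of the array passed in the planned limma fit, which compares 4 with 4 arrays (0.00% of all genes, smallest adjusted p = 0.0746). At an unadjusted p under 0.05 that fit held 2709 genes, 13.6% of all, and 6 of the 10, all of them lower, beside 9.04% of all genes that were lower. Deviations from the group means correlated between arrays of the same replicate number, from 0.714 for number 1 down to 0.296 for number 4. Nf1Prx1 4 correlated slightly more with control 3 (0.303) than with control 4. A limma fit that takes the replicate number as block was run as well and is called the paired fit. Its adjusted p may be too small. In the paired fit 6 of the 10 genes passed an adjusted p of 0.05 as lower, beside 5.0% of all genes, and 0 of the 10 passed as higher, beside 3.36%. The words rose and fell are kept for genes that passed in the paired fit, and none of these passed in the planned fit. The pairing was read from the arrays themselves, and no source says what a replicate number stands for. Pairs 2 and 3 each joined arrays that differed widely in Xist, a transcript that female cells make. It was at 5.86 in Nf1Prx1 2 against 10.54 in control 2 and at 10.94 in Nf1Prx1 3 against 5.55 in control 3.

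**Figure D1:**
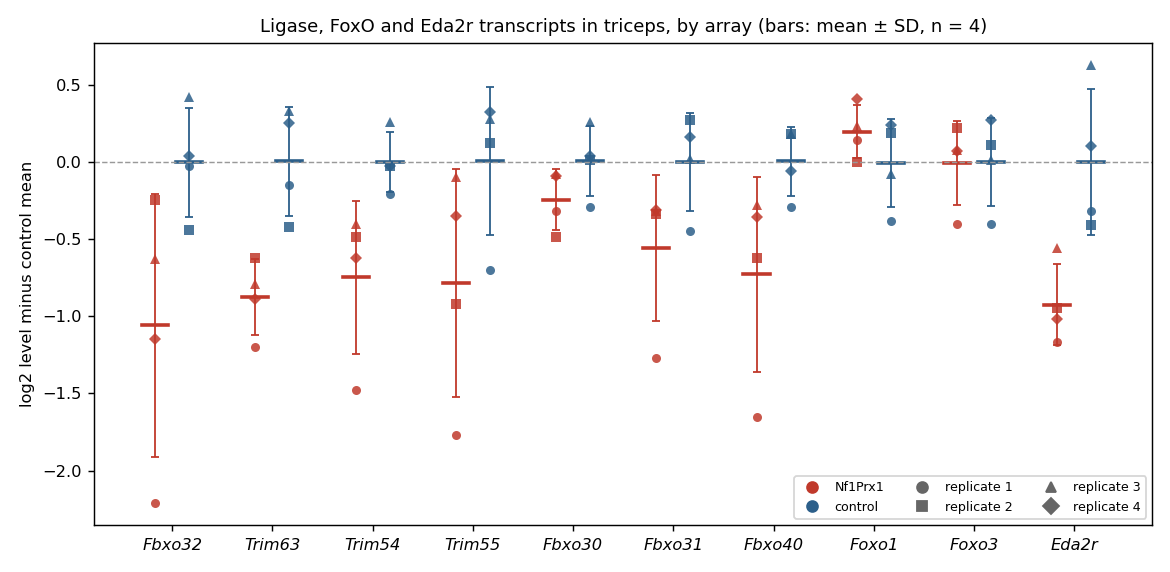
Log2 level of each of the 10 genes on each array, minus the mean of the control arrays of that gene, with Nf1Prx1 arrays left of control arrays for each gene, symbols for the replicate number and bars for the mean ± SD (n = 4). The Nf1Prx1 points of Trim63, Trim54 and Eda2r all lie below the control points, and Nf1Prx1 1 is the lowest array for 6 of the 7 ligases.

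Fbxo32 encodes the F-box subunit that lets an SCF ubiquitin ligase recognise its targets, with MyoD and the initiation factor eIF3f among those reported. Its log2 level was 8.64, 10.60, 10.22 and 9.70 in Nf1Prx1 1, 2, 3 and 4, against 10.82, 10.41, 11.27 and 10.89 in control 1, 2, 3 and 4. Nf1Prx1 1 was far below every other array, and Nf1Prx1 2 lay above control 2, so the groups overlapped. The means were 9.79 ± 0.85 in Nf1Prx1 and 10.85 ± 0.35 in control triceps (SD, n = 4). The log2 difference of -1.06 was the largest of the 10 but also the least precise (SE 0.38), and it passed in neither fit (adjusted p = 0.273 planned, 0.0856 paired).

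Trim63 encodes a RING ligase that acts on thick filament proteins of the sarcomere. Its log2 level was 9.30, 9.88, 9.71 and 9.61 in the Nf1Prx1 arrays, against 10.35, 10.08, 10.83 and 10.75 in the control arrays. Every Nf1Prx1 array was below every control array, with a gap of 0.20 between the groups. In all, 3 of the 10 genes were parted in this way toward lower levels in Nf1Prx1 triceps, beside 6.04% of all genes. Trim63 averaged 9.63 ± 0.24 in Nf1Prx1 and 10.50 ± 0.35 in control triceps (SD, n = 4), 1.84-fold lower. The log2 difference was -0.88 (SE 0.19, adjusted p = 0.135 planned, 0.0237 paired). Trim63 was lower in 4 of 4 pairs, as were 21.3% of all genes. Pair 2 contributed least, at -0.20, against -1.05, -1.12 and -1.15 in pairs 1, 3 and 4.

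Trim54 and Trim55 are the close relatives of Trim63, RING ligases that bind microtubules and the titin region of the sarcomere. Trim54 stood at 8.87, 9.86, 9.95 and 9.73 in the Nf1Prx1 arrays, against 10.14, 10.32, 10.61 and 10.32 in the control arrays. These groups did not overlap either. Trim54 fell by 0.74 on the log2 scale (SE 0.23, adjusted p = 0.211 planned, 0.0234 paired), with means of 9.60 ± 0.50 in Nf1Prx1 and 10.35 ± 0.20 in control triceps (SD, n = 4). Trim55 read 8.23, 9.08, 9.90 and 9.65 in Nf1Prx1 1 to 4, against 9.30, 10.12, 10.28 and 10.32 in control 1 to 4. Its groups overlapped through control 1, while each Nf1Prx1 array was below the control array of its number, as for 21.3% of all genes. Trim55 fell by 0.79 (SE 0.37 planned and 0.13 paired, adjusted p = 0.388 planned, 0.0185 paired).

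Fbxo40 is a muscle-restricted F-box protein that marks the insulin receptor substrate IRS1 for degradation. It had levels of 10.01, 11.04, 11.38 and 11.30 in the Nf1Prx1 arrays, against 11.37, 11.84, 11.84 and 11.60 in the control arrays. The groups touched, with the highest Nf1Prx1 array just above control 1. Fbxo40 fell by 0.73 (SE 0.28, adjusted p = 0.308 planned, 0.0417 paired). Fbxo31, an F-box protein known for cyclin D1 degradation, had levels of 9.52, 10.45, 10.47 and 10.48 in Nf1Prx1 triceps, against 10.34, 11.06, 10.81 and 10.95 in control triceps. It fell by 0.56 (SE 0.24, adjusted p = 0.359 planned, 0.0221 paired). Only control 1 overlapped with the Nf1Prx1 arrays. Fbxo31 has 2 transcript clusters on the array, and the dimmer one was lower by a similar step, at 9.33 ± 0.61 in Nf1Prx1 and 10.07 ± 0.49 in control triceps (SD, n = 4).

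Fbxo30 (MUSA1), a ligase that bone morphogenetic protein signalling holds down in mouse muscle, had the smallest difference of the ligases. Its levels were 8.30, 8.13, 8.54 and 8.53 in the Nf1Prx1 arrays, against 8.33, 8.63, 8.88 and 8.66 in the control arrays. The log2 difference was -0.25 (SE 0.14, adjusted p = 0.486 planned, 0.175 paired), and the groups overlapped.

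Foxo1 and Foxo3 encode the FoxO factors best known for driving Fbxo32 and Trim63 in wasting muscle. Foxo1 levels were 9.65, 9.51, 9.74 and 9.92 in the Nf1Prx1 arrays, against 9.13, 9.70, 9.43 and 9.75 in the control arrays. The Foxo1 difference was 0.20 (SE 0.15, adjusted p = 0.628 planned, 0.362 paired), higher in 3 of 4 pairs. Foxo3 read 8.59, 9.21, 9.07 and 9.06 in Nf1Prx1 1 to 4, against 8.59, 9.10, 9.0 and 9.26 in control 1 to 4. The groups covered the same range, with means of 8.98 ± 0.27 in Nf1Prx1 and 8.99 ± 0.29 in control triceps (SD, n = 4). With an SE of 0.18 for the Foxo3 difference, a small change in either direction could not have been seen.

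Eda2r encodes the receptor for ectodysplasin A2, a member of the tumour necrosis factor receptor family that lies on the X chromosome. Its log2 level was 7.38, 7.60, 7.99 and 7.53 in the Nf1Prx1 arrays, against 8.23, 8.14, 9.18 and 8.65 in the control arrays. No Nf1Prx1 array reached the lowest control array. Eda2r averaged 7.62 ± 0.26 in Nf1Prx1 and 8.55 ± 0.48 in control triceps (SD, n = 4) and was 1.90-fold lower. Its log2 difference was -0.93 (SE 0.23), with the lowest paired p of the 10 genes (adjusted p = 0.163 planned, 0.0113 paired). All 4 pairs were lower, as for 21.3% of all genes. The X-linked transcript Xist, which female cells make, was at 10.54 to 11.35 on 2 arrays of each group and at 5.52 to 5.86 on the other 2. Eda2r was lower in Nf1Prx1 triceps within each of these classes, by 0.64 where Xist was high (7.76 against 8.39) and by 1.22 where it was low (7.49 against 8.71). With the Xist class as a covariate the difference was -0.93 (SE 0.24, adjusted p = 0.170).

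The promoter windows of Trim63 and Eda2r, both parted between the groups, are shown because FoxO factors are known to act through the forkhead letters GTAAACA (reverse TGTTTAC), with the window of Trim54, the relative of Trim63 that was parted too, for comparison. Each runs 5′ to 3′ on the strand of the gene, from 250 bases before the annotated start to 50 bases after it, in RefSeq sequence of build GRCm38.p6, and capitals mark the forkhead letters on either strand. The windows are chr4:134314870-134315169 (plus strand) for Trim63, chrX:97377160-97377459 (minus strand) for Eda2r and chr5:31116362-31116661 (plus strand) for Trim54.
Trim63: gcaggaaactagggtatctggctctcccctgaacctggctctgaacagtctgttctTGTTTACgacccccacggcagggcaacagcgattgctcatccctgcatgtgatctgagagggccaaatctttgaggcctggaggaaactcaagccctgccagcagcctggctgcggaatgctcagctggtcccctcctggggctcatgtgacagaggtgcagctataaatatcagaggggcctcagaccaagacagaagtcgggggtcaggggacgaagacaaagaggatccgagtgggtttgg
Eda2r: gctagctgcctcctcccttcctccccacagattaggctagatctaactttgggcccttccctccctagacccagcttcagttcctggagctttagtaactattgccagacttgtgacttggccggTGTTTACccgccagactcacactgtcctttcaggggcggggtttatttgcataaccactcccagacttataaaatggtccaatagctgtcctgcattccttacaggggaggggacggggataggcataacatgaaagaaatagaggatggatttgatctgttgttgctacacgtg
Trim54: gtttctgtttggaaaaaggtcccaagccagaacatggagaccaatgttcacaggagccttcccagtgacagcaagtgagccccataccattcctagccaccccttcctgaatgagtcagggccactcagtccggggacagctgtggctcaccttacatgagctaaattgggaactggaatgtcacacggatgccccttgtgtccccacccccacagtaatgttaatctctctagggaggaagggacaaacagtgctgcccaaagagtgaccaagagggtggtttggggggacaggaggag
The forkhead letters begin 194 bases before the start of Trim63 and 125 bases before that of Eda2r. They were found in these windows of 2 of the 8 genes of the 10 that have a window in the RefSeq table, and in 3.65% of the 32851 windows of all genes. The windows of Trim54, Fbxo31, Fbxo30, Fbxo40, Foxo1 and Foxo3 do not hold these letters. The E-box CAGCTG, read by myogenic factors such as MyoD and the same on both strands, lies in the windows of Trim63, Trim54 and Fbxo40 and in 16.3% of all windows. A match is a string of letters and not a measured binding site.

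The 7 ligases moved together from array to array. Over the 8 arrays, the 21 pairs of ligases had Pearson correlations of 0.43 to 0.96 with a median of 0.82, a description over arrays that share RNA, normalization and the group difference itself. Averaged over the 7 ligases, the deviation from the control mean was -1.42, -0.54, -0.37 and -0.54 in Nf1Prx1 1, 2, 3 and 4, against -0.30, -0.05, 0.25 and 0.10 in control 1, 2, 3 and 4. Nf1Prx1 1 was thus the lowest by a wide margin, and control 1 was the lowest of the controls. These arrays numbered 1 also had higher levels of neutrophil transcripts and of the brown fat markers Ucp1 and Cidea. Ucp1, the uncoupling protein of brown fat, was at 9.75 in Nf1Prx1 1 and 10.18 in control 1. The other Nf1Prx1 arrays were at 6.05 to 6.18 and the other controls at 6.01 to 6.24. Cidea was at 10.38 in Nf1Prx1 1 and 10.26 in control 1, against at most 6.32 elsewhere. The brown fat markers Elovl3 (5.94 and 5.83) and Dio2 (7.41 and 7.48) lay within the range of the other arrays. Ppara was at 9.38 in Nf1Prx1 1, the highest of its group, and at 8.50 in control 1, the lowest control. Without both arrays numbered 1 the log2 differences were -0.69 for Fbxo32, -0.82 for Trim63, -0.57 for Trim54, -0.70 for Trim55, -0.47 for Fbxo31, -0.52 for Fbxo40 and -0.95 for Eda2r. Without Nf1Prx1 1 alone they were smaller for most ligases, at -0.68 for Fbxo32, -0.77 for Trim63, -0.50 for Trim54, -0.46 for Trim55, -0.32 for Fbxo31 and -0.42 for Fbxo40, with -0.85 for Eda2r and a median over the 10 genes of -0.44. None of the 10 passed without Nf1Prx1 1. None passed without both arrays numbered 1 either, in the fit without pairing, where the lowest adjusted p was 0.0897, for Trim54. Leaving out pair 1, 2, 3 or 4, the paired fit called 3, 6, 1 or 0 of the 10 genes as lower, beside 1.47%, 2.58%, 0.451% and 0.0602% of all genes. Trim54, Trim55 and Eda2r were the ones called without pair 1, and Trim55 the one called without pair 3. Without pair 2 the calls were Fbxo32, Trim63, Trim54, Trim55, Fbxo31 and Eda2r.

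The ligases and Eda2r are compared here with the muscle fibre content of the samples, since less fibre RNA in a sample and less transcript in each fibre cannot be told apart in whole muscle. The 12 fibre markers, mostly contractile and calcium-handling genes, had a mean level of 12.34 to 12.99 in Nf1Prx1 and 12.89 to 12.99 in control triceps. Each of the 12 averaged lower in Nf1Prx1 triceps, and 1 of them, the slow-fibre troponin Tnnc1, passed in the paired fit. The list mean differed by -0.37, most of it from the slow-fibre genes Tnnc1 (-1.67) and Myh7 (-1.17), while the median marker differed by -0.14. Set against the mean of these markers on the same array, the log2 difference was -0.69 for Fbxo32, -0.55 for Eda2r, -0.51 for Trim63, -0.42 for Trim55, -0.37 for Trim54, -0.36 for Fbxo40 and -0.19 for Fbxo31. Without Nf1Prx1 1 these values were smaller by over 1.5 times for 5 of the ligases, at -0.38 for Fbxo32, -0.17 for Trim55, -0.20 for Trim54, -0.13 for Fbxo40 and -0.03 for Fbxo31, against -0.48 for Trim63 and -0.55 for Eda2r. On this relative scale all genes shift up by the same step, to a median of 0.34, and Fbxo30 turned to 0.12, Foxo3 to 0.37 and Foxo1 to 0.57. On this scale none of the 10 passed without the block, with or without Nf1Prx1 1. With the block Fbxo32, Trim63 and Eda2r passed as lower, beside 0.411% of all genes, and Foxo1 as higher, beside 25.5%. Of the 10 genes Eda2r alone kept its groups apart on it, and only narrowly, with -4.83 in Nf1Prx1 2 against -4.80 in control 2. By array, the fibre marker mean deviated from the control mean by -0.61, -0.51, 0.05 and -0.43 in Nf1Prx1 1, 2, 3 and 4, beside ligase deviations of -1.42, -0.54, -0.37 and -0.54. In pair 4 Tnnc1 differed by -2.68 and Myh7 by -2.06, while the other fibre markers differed by -0.14 to 0.04. Those other markers differed by -0.85 to -0.21 in pair 1 and by -0.44 to -0.05 in pair 2. The relative values therefore also carry the slow-fibre difference. The slow myosin Myh7 was at 10.56 in Nf1Prx1 3 and at 7.76 to 8.33 in the other Nf1Prx1 arrays. The part of fibre content in the ligase levels was not tested.

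**Figure D2:**
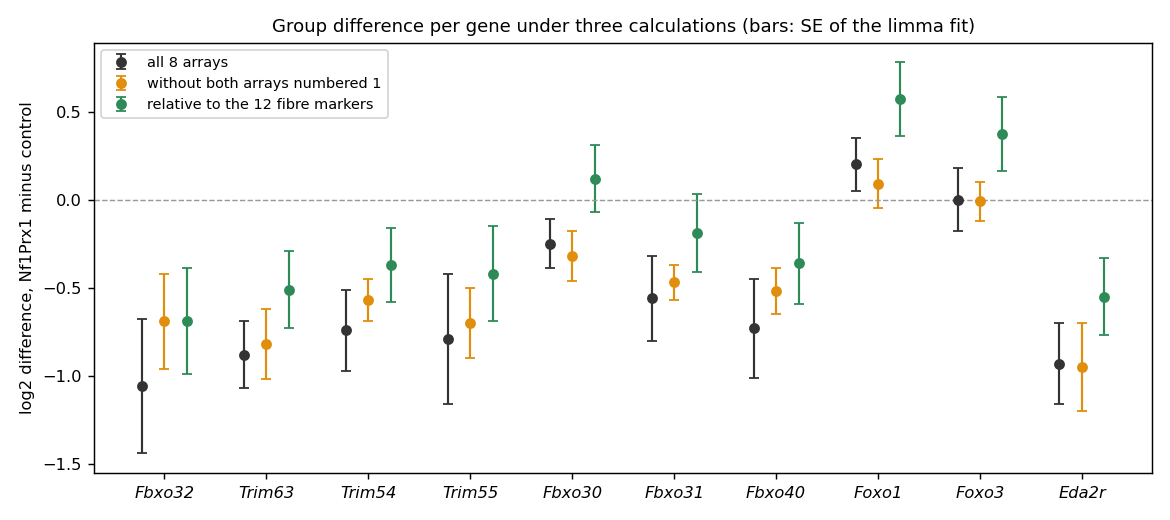
Log2 difference, Nf1Prx1 minus control, of each gene in the planned limma fit with all 8 arrays, without both arrays numbered 1, and relative to the mean of the 12 fibre markers on each array, with bars for the SE. Fbxo32, Trim63 and Eda2r are at -0.51 or lower under each calculation, and Fbxo30 crosses 0 relative to the fibre markers.

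Markers of fat cells, fibroblasts and macrophages were higher in Nf1Prx1 triceps. All 7 measured adipocyte markers passed as higher in the paired fit, with a list mean of 10.08 to 12.46 in Nf1Prx1 and 8.58 to 11.27 in control triceps. Of 8 fibroblast markers 5 passed, with list means of 10.06 to 11.09 in Nf1Prx1 and 9.66 to 10.78 in control triceps, and of 7 macrophage markers 5 passed, with list means of 8.86 to 9.31 in Nf1Prx1 and 8.10 to 8.99 in control triceps. None of the 5 brown fat, 7 neutrophil, 5 endothelial and 3 Schwann cell markers measured passed, with list medians of 0.10, 0.30, 0.02 and 0.18. Array levels have a floor above 0, so no marker could be read as absent. The part of these cells in the lower ligase levels was not tested.

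Along each gene, the authors' deposited table of probe sets gives a finer view, since a probe set covers only a stretch of a transcript. Of the 73 probe sets of the 10 genes 65 had a lower mean in mutant muscle, beside 53.4% of all probe sets in the authors' deposited table. The 73 are repeated readings of only 10 genes, with 11 each for Fbxo32 and Trim54. They are not independent, and counts of them are not counts of separate genes. At the authors' unadjusted p under 0.05, 34 of the 73 were lower, beside 7.42% of all probe sets, and 0 were higher. Once adjusted over all probe sets, a single probe set passed, in Trim63, beside 0.0464% of all probe sets. The standard deviations and T values of that table imply 5 arrays per group where its notes state 4, so it is not a second measurement that can be matched to the 8 arrays.

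All 11 probe sets of Fbxo32 were lower in the authors' deposited table, from -0.15 to -1.27 with a median of -1.02 (log2, mutant minus control). Of these, 10 had an unadjusted p under 0.05, and the exception was the last in order of probe set ID, with authors' means of 9.0 in mutant and 9.1 in control muscle. The 4th Fbxo32 probe set (10428800) had the lowest p of that gene, with authors' means of 9.4 in mutant and 10.4 in control muscle. Every one of the 7 Trim63 probe sets had an unadjusted p under 0.05, and in 6 the authors' minimum in control muscle was above the maximum in mutant muscle. Over the 10 genes 17 of the 73 probe sets were parted in that way, beside 1.38% of all in the authors' deposited table. In the authors' deposited table the 4th Trim63 probe set (10508957) had means of 9.4 in mutant and 10.4 in control muscle, with ranges of 9.2 to 9.5 and 10.2 to 10.7 and an adjusted p of 0.0347 computed here. Eda2r had 9 lower probe sets in the authors' deposited table, 8 of them with an unadjusted p under 0.05, and the 3rd (10605877) read 6.7 in mutant and 7.7 in control muscle. The authors' own list of lower probe sets held 3 of Trim63 and 3 of Eda2r, 6 of the 73, beside 0.367% of all probe sets, and their list of higher ones held none of the 73.

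Trim54 had 11 of 11 probe sets lower in the authors' deposited table, 7 with an unadjusted p under 0.05, and its 8th (10520714) read 9.4 in mutant and 9.9 in control muscle. Trim55, Fbxo31 and Fbxo40 had 8 of 8, 9 of 9 and 4 of 4 probe sets lower in that deposited table, with medians of -0.62, -0.75 and -0.47, and 0, 2 and 0 of them had an unadjusted p under 0.05. The lowest authors' p was at the 7th Trim55 probe set (10490979), with 9.1 in mutant and 9.8 in control muscle, at the 9th of Fbxo31 (10582240), with 9.6 and 10.4, and at the 3rd of Fbxo40 (10439360), with 10.5 and 11.2. Fbxo30 was mixed, with 3 lower and 2 higher, and its 3rd probe set (10361751) stood at 8.2 in mutant and 8.3 in control muscle. The 4 Foxo1 probe sets were all higher, by 0.06 to 0.44, led by the 3rd (10491965) at 10.8 in mutant and 10.4 in control muscle in the authors' deposited table. Foxo3 had 3 lower and 2 higher, and none of the Fbxo30, Foxo1 or Foxo3 probe sets reached an unadjusted p of 0.05, with the lowest of Foxo3 at its 5th (10368892), 8.3 in mutant and 8.7 in control muscle.

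**Figure D3:**
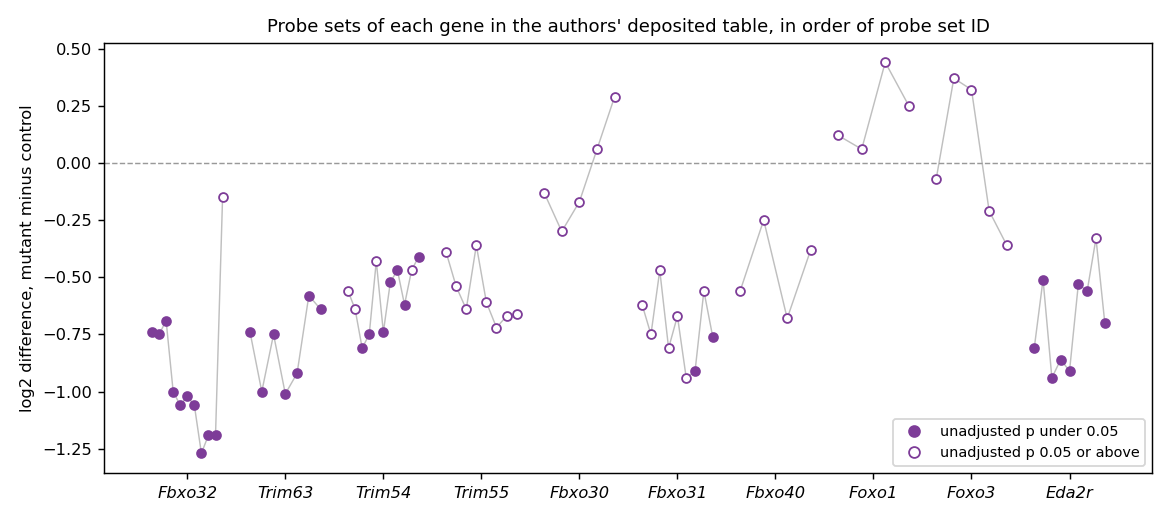
Log2 difference, mutant minus control, of every probe set of the 10 genes in the authors' deposited table, in order of probe set ID within each gene, with filled points for an unadjusted p under 0.05. All points of Fbxo32, Trim63, Trim54, Trim55, Fbxo31, Fbxo40 and Eda2r lie below 0, while those of Fbxo30 and Foxo3 lie on both sides and those of Foxo1 above it.

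In the lists that follow, counts of genes that fell stand beside 5.0% of all genes in the paired fit, and counts of genes that rose beside 3.36%. These lists too were chosen with earlier results of these data known. Among 17 other FoxO factors and FoxO regulators 1 passed as lower and 0 as higher, a share near that of all genes, with a list median of -0.08. The one that fell was Foxo4, another FoxO factor, by 0.54 (SE 0.16, adjusted p = 0.193 planned, 0.0177 paired), at 8.69 ± 0.30 in Nf1Prx1 and 9.23 ± 0.17 in control triceps (SD, n = 4). The next in order, Mdm2, a ligase for p53 that also acts on FoxO proteins, Ywhab, a 14-3-3 protein that binds phosphorylated FoxO, and the kinase gene Sgk1 did not pass, with differences of -0.50, 0.61 and -0.40. Of 23 FoxO target genes reported in wasting muscle 3 fell and 1 rose, with a list median of -0.07. Mul1, a ligase of the mitochondrial membrane, differed by -0.46 (adjusted p = 0.0197 paired), the proteasome activator Psme4 by -0.55 (0.0291) and the autophagy kinase Ulk1 by -0.55 (0.0409). Angptl4, an inhibitor of lipoprotein lipase that fat cells also make, rose by 0.73 (adjusted p = 0.0111 paired), with 10.22 in Nf1Prx1 1 and 9.56 in control 1, the arrays with the highest adipocyte markers.

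Among 18 other ubiquitin ligases of muscle 3 fell and 0 rose, with a list median of -0.09. Asb2, which marks filamins and desmin for degradation, was lower by 1.03 on the log2 scale (SE 0.26, adjusted p = 0.168 planned, 0.0328 paired). Its levels were 9.86, 11.06, 10.91 and 10.80 in the Nf1Prx1 arrays, against 11.63, 11.27, 11.99 and 11.86 in the control arrays, which did not overlap. Trim72, a membrane repair protein with ligase activity, differed by -0.84 (0.0172 paired) and Fbxw7, an F-box protein of another SCF ligase, by -0.49 (0.0234 paired). Of 11 genes for the SCF core and for ubiquitin conjugation 2 fell, with a list median of -0.27 and 10 of 11 means lower. Rbx1, the RING subunit of SCF ligases, was at 8.97 ± 0.29 in Nf1Prx1 and 9.52 ± 0.14 in control triceps (SD, n = 4; adjusted p = 0.0264 paired), and the conjugating enzyme Ube2g1 differed by -0.42 (0.0399 paired). The scaffold Cul1 and the conjugating enzyme Ube2b did not pass, at -0.25 and -0.33.

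Of 23 known substrates and partners of the ligases 2 fell and 0 rose, a share not far from that of all genes, and the list median was -0.27. The slow myosin light chain Myl3 was lower by 1.78 (adjusted p = 0.0235 paired) and Myod1, the myogenic factor that Fbxo32 targets, by 0.44 (0.0328 paired). The slow myosin Myh7 and the autophagy receptor Sqstm1 had differences of -1.17 and -0.37 and did not pass.

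Among 20 growth and wasting signals upstream of the ligases 5 rose and 1 fell, with a list median of -0.04. Igf1, the growth factor that restrains FoxO through Akt, rose by 1.07 on the log2 scale (SE 0.39, adjusted p = 0.281 planned, 0.0050 paired). Its levels were 11.39, 9.81, 9.78 and 10.22 in the Nf1Prx1 arrays, against 10.07, 8.75, 9.0 and 9.10 in the control arrays, so control 1 overlapped with the Nf1Prx1 arrays. Within each group Igf1 was highest in the array numbered 1, which also had the highest adipocyte marker mean (12.46 in Nf1Prx1 1 and 11.27 in control 1). Fkbp5 rose by 0.51 (0.0266 paired), and Tnfrsf1a, a receptor for tumour necrosis factor, by 0.51 (0.0322 paired). Fst and Pik3r1 were the others of this list that rose, by 0.754 and 0.585. Acvr2b, a receptor for myostatin and activin, fell by 0.44 (0.0221 paired). None of 11 genes for ectodysplasin and TWEAK signalling passed, with a list median of -0.03, and the leading ones were Tnfrsf12a (-0.47), Traf2 (-0.25), Nfkbia (0.32) and Edaradd (0.34). Of 12 denervation response genes the repressor Hdac9 fell by 0.63 (0.0172 paired) and the transcription factor Runx1 rose by 0.46 (0.0234 paired), while Hdac4 and the acetylcholine receptor subunit Chrnb1 differed by -0.34 and -0.45 without passing.

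**Figure D4:**
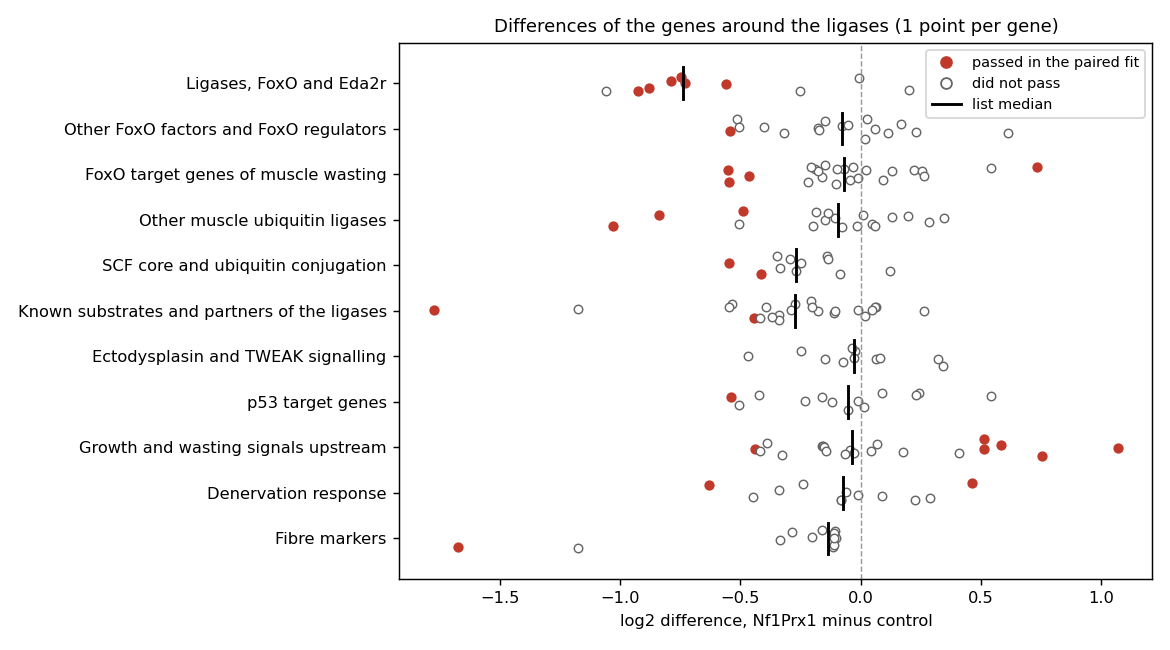
Log2 difference, Nf1Prx1 minus control, of each measured gene in the list of ligases, FoxO factors and Eda2r and in the lists around them, with filled points for genes that passed in the paired fit and a bar for the list median. The list of ligases, FoxO factors and Eda2r has its median at -0.74, and the other lists have medians of -0.27 to -0.03.

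The genes most like the leading members over the 8 arrays were sought by Pearson correlation among 9968 genes in the upper range of mean level. For Trim63 they were Chac1, a glutathione-degrading enzyme (r = 0.984), the phosphodiesterase Pde7a (0.972) and Csrnp2 (0.962). Chac1 itself differed by -2.09 (adjusted p = 0.0150 paired). Fbxo32 was most like Rxrb, a retinoid X receptor (r = 0.976), the anion exchanger Slc26a6 (0.975) and Fam220a (0.970), and Eda2r was most like Tmco4 (0.978), the transcription factor Brf2 (0.975) and 9330159F19Rik (0.973). Foxo1 had Helz2 (0.991), the non-coding RNA Meg3 (0.935) and Zfp746 (0.924) as its nearest. These values describe the 8 arrays, which share the group difference, and rank genes only.

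Nf1 as a whole transcript was at 8.72 ± 0.07 in Nf1Prx1 and 8.85 ± 0.12 in control triceps (SD, n = 4), a difference of -0.13 that did not pass (adjusted p = 0.599 planned, 0.440 paired). Medians of the arrays ran from 7.23 to 7.39 and Pearson correlations between arrays, taken over all genes, from 0.928 to 0.994. With 4 arrays a group, precision is limited for each value given.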

How the data were processed

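Total RNA of triceps from 8 mice was hybridised to 8 arrays, and 4 Nf1Prx1 and 4 control mice were grouped by their genotype labels. Per the labels, the authors made the log2 levels per transcript cluster by RMA in the Affymetrix Expression Console, with versions not given in the sources used here. The design text also mentions the Affymetrix Exon Array Computational Tool, with no step given for it. A second deposited table, of probe sets, gives the authors' group means in log2 units, an unadjusted p-value, a ratio of control over mutant, and F and T scores per the file headers. Its differences were turned here to mutant minus control, and its normalization is not given in the sources used here. Its p-values fit its F scores with 8 residual degrees of freedom (to within 5.89e-06), as 5 arrays per group would give, but not with 6 (0.0125).

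Of 35556 clusters 21789 had 1 gene symbol, 1621 had several and 12146 had none in the annotation used, and those with several or none were left out. Symbols were updated through the Entrez ID for 21698 clusters. Where a gene had several clusters (999 genes) the brightest on average was used, which left 19938 genes. The comparison used limma 3.58.1 under R 4.3.3 (lmFit, eBayes, two-sided) and Benjamini-Hochberg adjustment over all genes, with pandas 2.3.3, scipy 1.17.1 and matplotlib 3.10.9 for the rest. Deviations from the group means correlated at 0.714, 0.574, 0.391 and 0.296 for arrays numbered 1, 2, 3 and 4, and at -0.531 to 0.303 for unlike numbers. All same-numbered pairs exceeded 0.1, and the numbers were treated as pairs. This rests on the data and no stated design, and 3 pairs of unlike numbers exceeded 0.1 too (0.303, 0.289 and 0.119). Nf1Prx1 4 correlated slightly more with control 3 (0.303) than with control 4 (0.296). Adjusted p from the block may be too small. Nothing else says how the mice of a group are related. On simulated data with 100 genes changed by 1 and 100 by 2 on the log2 scale among 19938, limma recovered 78 and 95 of them without the block, at 14 false calls, and 59 and 93 with it, at 11. The simulated noise was independent for each gene and array, with no effect of the replicate number. These counts therefore cannot show how the block behaves on arrays paired from the data.

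The 10 genes and the 18 lists around them were chosen with earlier results of these data known. From each pathway list the 4 genes with the smallest paired p are named, with any gene a group sentence needs, from the markers a few, and for each of the 10 genes the probe set with the lowest p of the authors. Fbxo32, Trim63, Foxo1 and Eda2r had their 3 most alike genes named. Alternatives were the block, quantile normalization, a filter on dim genes, the mean of all clusters, array weights and left-out arrays. Levels relative to the fibre markers and the Xist class were added after seeing the data. Of 10 genes 8 had a RefSeq promoter window.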

Additional observations from a re-analysis of the deposited data

Results flagged for a closer look

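Chance alone marks about 1 in 20 groups of 4 by Dixon's test at the 95% level, and 5 of 38 groups were marked. Fbxo31 in Nf1Prx1 1, at 9.52, stood apart from the next Nf1Prx1 array at 10.45. In control 1, the adipocyte marker mean of 11.27 stood apart from the next control at 8.80, the brown fat marker mean of 8.45 from the next at 6.92, and the neutrophil marker mean of 9.18 from the next at 6.86. In Nf1Prx1 1 the brown fat marker mean of 8.57 stood apart from the next Nf1Prx1 array at 7.01. The values of the ligases and Eda2r without both arrays numbered 1 are given in the report.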

How the results depend on the processing

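The planned fit called 0 genes and the replicate block 1667, of which 6 were among the 10. Quantile normalization gave 5 genes and array weights 3070, of which 0 and 5 were among the 10 (8.26% of all genes were lower with array weights). Leaving out 1 array at a time gave 0 to 3 genes, and leaving out both arrays numbered 1 gave 96, none of them among the 10. The block without 1 pair at a time gave 719, 1202, 206 and 50 genes without pairs 1, 2, 3 and 4, and 0 to 6 among the 10. Over the 18 settings chosen at the outset the median of the 10 genes ran from -0.87 to -0.44, and Fbxo32, Trim63, Trim54, Trim55, Fbxo31, Fbxo40, Fbxo30 and Eda2r stayed lower and Foxo1 higher in each. Relative to the fibre markers the median was -0.36, or -0.15 without Nf1Prx1 1, and 4 of the 10 passed with the block and 0 without it. Foxo3, near 0, changed sign with quantile normalization (0.08), over left-out arrays and pairs (-0.14 to 0.13, with 0.06 for the block without pair 4) and relative to the fibre markers (0.37, or 0.42 without Nf1Prx1 1), as did Fbxo30 relative to the fibre markers (0.12, or 0.07 without Nf1Prx1 1). Of 34 probe sets at the authors' unadjusted p under 0.05, 1 passed after adjustment over the whole table. The cause of these changes was not tested.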

Other observations

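The p53 target genes, among which Eda2r has also been counted, were measured as a further list. Of 13 measured genes Phlda3, a repressor of Akt, passed in the paired fit as lower, by 0.54 (adjusted p = 0.0409 paired), 0 passed as higher, beside 5.0% and 3.36% of all genes, and the list median was -0.05. Phlda3 levels were 11.40, 10.91, 11.30 and 11.30 in the Nf1Prx1 arrays, against 11.98, 11.73, 11.95 and 11.41 in the control arrays, which did not overlap. Mdm2, Ei24 and Tnfrsf10b followed with differences of -0.50, -0.42 and 0.23 and did not pass.

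Satellite cells are the stem cells of muscle. Of their 5 markers the adhesion molecule Vcam1, which endothelial and other cells also carry, rose by 0.58 (adjusted p = 0.0377 paired), and the list mean was 7.58 to 7.83 in Nf1Prx1 and 7.69 to 7.80 in control triceps. The myogenic factor Myf5 (-0.39), the stem cell factor Pax7 (-0.19) and the cadherin Cdh15 (-0.22) did not pass (adjusted p = 0.0719, 0.203 and 0.220 paired). Each of them was lower in 4 of 4 pairs, as were 21.3% of all genes. The remaining marker, Chrna2, differed by 0.10, was higher in 2 of 4 pairs and did not pass (adjusted p = 0.683 paired). The list median was -0.19, and Cdh15 and Chrna2 are named here after their values were seen.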
